A study of Homo sapiens with 26 samples.

Results

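The genes described here are 57 genes whose protein products are not listed as mitochondrial, yet whose ribosome footprints were strongly recovered when ribosomes were labelled at the outer mitochondrial membrane (OMM). They were chosen by 1 set of values, the first replicate of ribosome profiling with LOV-BirA at the OMM. Of 6989 entries that name 1 gene and reach 64 coding footprints in that replicate's total, 714 were in the study's mitochondrial gene sheets. Among the rest, 74 had a log2 ratio of pulldown to total RPKM (footprints scaled to the length counted and to library size) above 1.5. Genes with symbols starting with MT-, RPL, RPS, EIF or EEF could not be taken, whatever their ratio. Removing 13 ribosomal protein genes and 4 genes left out by name (NRIP1, RSPRY1, RESF1 and DST) gave the 57, or 0.927% of the 6150 genes that could have been taken. Because these values chose the genes, they are given below as a description and carry no test.

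All libraries came from HEK293T, a human embryonic kidney cell line, in which the ribosomal protein RPL29 carried an Avi tag at its own locus. LOV-BirA is a biotin ligase that works under blue light, so ribosomes close to it are biotinylated during a light pulse and can be pulled down on streptavidin. For ribosome profiling the ligase sat at the endoplasmic reticulum (ER, fused to Sec61β), at the OMM (by the OMP25 membrane anchor) or free in the cytosol, with 2 replicates each of total input and pulldown. For RNA-seq of intact mRNAs on the pulled-down ribosomes, the ligase was at the OMM in wild-type (WT) cells with a negative control guide RNA, in an AKAP1 null line and in a LARP4 null line, with 2 replicates each of both fractions. A single lysate without cycloheximide (CHX), the drug that holds ribosomes on mRNA, was also sequenced. Its light pulse was shorter than that of the CHX lysates. The sample titles mention CHX only for this lysate, as absent. CHX in the other libraries and the pulse lengths are taken from the study's general methods. Each null genotype is 1 monoclonal line, so the genotype and the clone cannot be told apart. The labels do not say whether replicates were separate cultures, and p-values measure the spread between these samples.

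Many nuclear-encoded mitochondrial proteins can be made on ribosomes next to the mitochondrion. AKAP1 is an OMM protein that binds RNA and anchors protein kinase A, and LARP4 is a La-related protein that binds poly(A) and the poly(A)-binding protein. The ER has a similar role for secreted and membrane proteins, whose nascent chains carry signal sequences that bring ribosomes to the translocon. A short open reading frame leaves little time between the emergence of a nascent chain and the end of translation.

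Library totals ran from 1025114 to 19539527 footprints and from 38347615 to 100840544 RNA-seq reads. The edited genes followed their labels. AKAP1 stood at 115 and 119 CPM (counts scaled to library size) in the WT total inputs against 32.2 and 20.3 CPM in the AKAP1 null, a log2 difference of −2.15 ± 0.22 (SE) that missed the threshold (edgeR adjusted p = 0.243). In that contrast edgeR called 0 of 13856 genes, with 208 higher and 267 lower at an unadjusted p under 0.05, and DESeq2 called 7 in each direction. LARP4 stood at 225 and 231 CPM in WT against 79.3 and 74.0 CPM in the LARP4 null (log2 −1.56 ± 0.12, edgeR adjusted p = 0.0426). Of the markers of HEK293T cells, NEFL reached at least 67.7 CPM and VIM at least 442 CPM in each total input, PAX2 between 5.25 and 10.3 CPM and KRT8 between 3.88 and 20.3 CPM. Of the genes of other cell types, PTPRC and ALB stayed under 0.2 CPM, while COL1A1 lay between 7.16 and 23.1 CPM.

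The group includes very short open reading frames. Shown here, because they are its 4 shortest, are the coding sequences of OST4 (chr2:27071349-27071462, minus strand), COPS9 (chr2:240131051-240136284, minus strand), MTLN (chr2:110212355-110212525, minus strand) and NOP10 (chr15:34341968-34343073, minus strand), as spliced in the canonical GENCODE 44 transcript on GRCh38, with the start and stop codons in capitals.
OST4: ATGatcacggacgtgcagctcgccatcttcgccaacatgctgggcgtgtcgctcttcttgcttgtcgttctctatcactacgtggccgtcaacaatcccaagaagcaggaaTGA
COPS9: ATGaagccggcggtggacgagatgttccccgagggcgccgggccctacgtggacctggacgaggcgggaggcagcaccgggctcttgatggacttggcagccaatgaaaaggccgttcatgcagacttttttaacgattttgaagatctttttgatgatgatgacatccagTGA
MTLN: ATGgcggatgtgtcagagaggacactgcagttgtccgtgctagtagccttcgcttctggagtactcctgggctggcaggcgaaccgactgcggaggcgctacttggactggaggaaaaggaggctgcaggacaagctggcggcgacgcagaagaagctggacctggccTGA
NOP10: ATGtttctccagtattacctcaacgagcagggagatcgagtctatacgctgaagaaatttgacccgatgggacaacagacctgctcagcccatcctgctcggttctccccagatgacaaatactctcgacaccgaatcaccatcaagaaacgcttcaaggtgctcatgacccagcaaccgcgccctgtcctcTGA
They encode 37, 57, 56 and 64 amino acids. The coding sequence of OST4 is 114 nucleotides long, from start to stop codon. For COPS9 and MTLN the deposited table counted more sequence than is printed (723 nucleotides for COPS9, 229% of the printed length for MTLN), so their footprints are not limited to these letters.

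The pair with the highest values, MZT2A and MZT2B, are near-identical genes on chromosome 2. MZT2A lies at chr2:131484061-131492376 on the minus strand and MZT2B at chr2:130182283-130190626 on the plus strand (start to end of the coding sequence on GRCh38). Both coding sequences are 477 nucleotides long and differ at 10 positions, an identity of 97.9%. The last 120 nucleotides of each are shown because they hold 5 of the 10 differences, which are in capitals.
MZT2A: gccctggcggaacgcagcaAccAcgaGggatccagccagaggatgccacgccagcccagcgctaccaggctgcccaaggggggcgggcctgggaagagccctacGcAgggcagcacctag
MZT2B: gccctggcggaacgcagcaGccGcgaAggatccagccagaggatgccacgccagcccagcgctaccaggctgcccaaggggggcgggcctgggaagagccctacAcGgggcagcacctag
The footprint table counted only 85 nucleotides of the MZT2A and 179 nucleotides of the MZT2B coding sequence. Positions that reads cannot align to uniquely were masked by the authors in the footprint table. In both tables the share of each copy is uncertain, and the 2 genes are not independent.

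The footprints at the OMM were highest for MZT2A and MZT2B, small proteins that bind the γ-tubulin ring complex, the microtubule nucleator. MZT2A stood at 92.1 RPKM in the total input and 721 RPKM in the pulldown of replicate 1, and at 89.8 and 560 RPKM in replicate 2, log2 ratios of 2.97 and 2.64. MZT2B rested on 106 and 690 RPKM in replicate 1 and on 86.8 and 586 RPKM in replicate 2, ratios of 2.70 and 2.76. The next 3 were PFDN4, a subunit of the co-chaperone prefoldin (2.45 and 1.90 in the 2 replicates), EMC6, a subunit of the ER membrane insertase EMC (2.43 and 2.13), and SIVA1, a small pro-apoptotic protein that binds the receptor CD27 (2.43 and 2.60). PFDN4 went from 82.2 to 450 RPKM in replicate 1 and from 131 to 489 RPKM in replicate 2. EMC6 went from 38.3 to 207 RPKM and from 35.5 to 155 RPKM, and SIVA1 from 269 to 1446 RPKM and from 156 to 946 RPKM. In each of these 5 genes both pulldowns lay above both total inputs. The counting error of the replicate 1 ratio, on the log2 scale, was 0.20 for MZT2A, from 85.5 and 138 footprints, and 0.06 for SIVA1, from 1278 and 1414 footprints.

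Across the group the replicate 1 ratio ran from 1.501 to 2.97 with a median of 1.72, and 11 genes were above 2. In replicate 2, which the choice did not use, the ratio ran from 0.79 to 2.76 with a median of 1.78, beside a median of −0.45 for the other 6093 genes that could have been taken. Of the 57, 43 were above 1.5 and 55 above 1 in replicate 2. The 2 below 1 were HSP90B1 (0.79), the ER-resident HSP90 chaperone, and ANAPC13 (0.90), and CD63 stood at 1.02 after 1.87 in replicate 1. HSP90B1 was also the gene just inside the threshold (1.501 in replicate 1, counting error 0.18), next to C1orf53 (1.51) and POLE4 (1.51). HSP90B1 went from 49.5 to 140 RPKM in replicate 1 and from 25.6 to 44.1 RPKM in replicate 2, C1orf53 from 33.4 to 95.5 and from 26.5 to 73.9 RPKM, and POLE4 from 67.1 to 192 and from 72.4 to 248 RPKM. Just outside were C1orf122, DPM3 and ZCRB1 with 1.498, 1.498 and 1.489. C1orf122 went from 89.7 to 253 and from 70.5 to 234 RPKM, DPM3 from 136 to 384 and from 102 to 271 RPKM, and ZCRB1 from 24.3 to 68.1 and from 36.1 to 99.998 RPKM. The closest genes on either side of the threshold thus differed by less than their counting error, and in replicate 2 the 3 outside genes (1.73, 1.41 and 1.47) lay above HSP90B1.

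**Figure D1:**
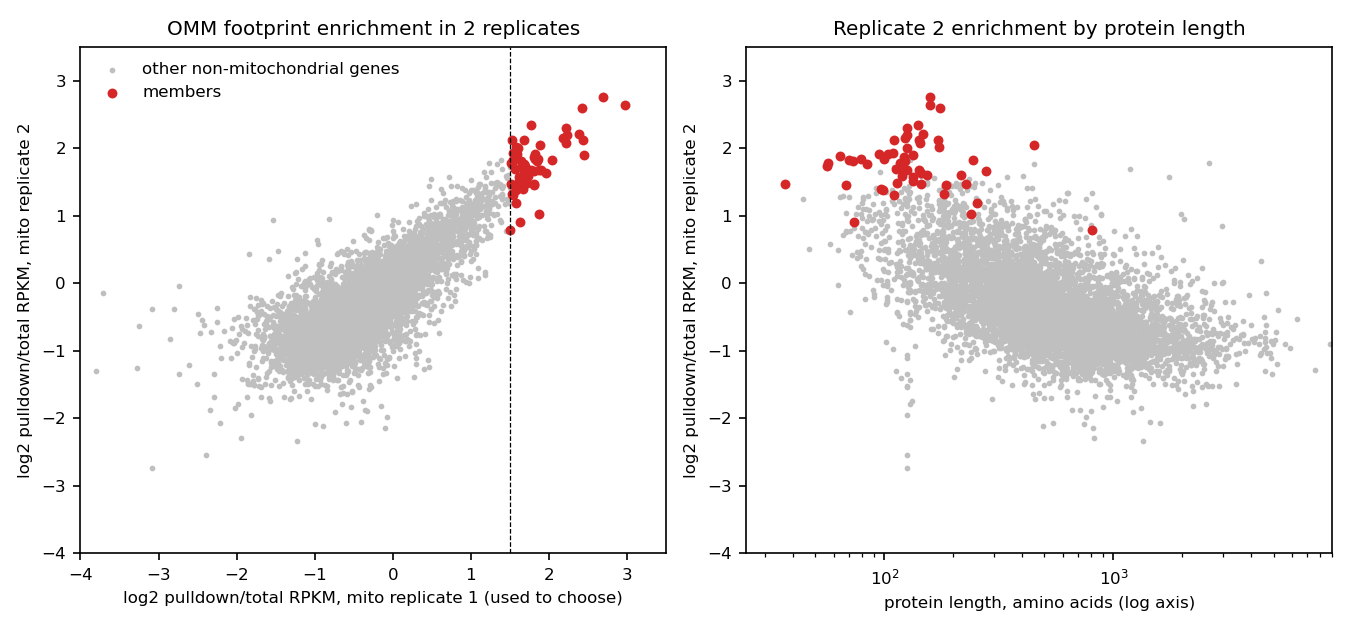
Left, log2 ratio of pulldown to total RPKM at the OMM in replicate 1 (x axis) and replicate 2 (y axis) for the 57 genes (red) and the other 6093 candidates (grey; 2 lie outside the axes); the dashed line is the threshold of 1.5. Right, the replicate 2 ratio against protein length on a log axis. The red points cluster between 37 and 279 amino acids, apart from DEF8 and HSP90B1, in the part of the cloud where grey points are also high.

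The group held few large proteins. Its median length was 125 amino acids, beside 509 for the other candidates, and 49 of 57 proteins (86.0%) had fewer than 200 amino acids, beside 611 of 6093 (10.03%). The share of candidates that belonged to the group was 14.6% below 100 amino acids (13 of 89), 6.30% from 100 to under 200 (36 of 571) and 0.146% from 200 upwards (8 of 5490). In replicate 2 the median ratio of all candidates followed the same order, at 0.87, 0.32 and −0.51. The 8 longer proteins were BCL7C (217 amino acids), OAZ1 (228), CD63 (238), RWDD1 (243), TRPT1 (253), HAX1 (279), DEF8 (451) and HSP90B1 (803). For HSP90B1 only 13.97% and for CD63 only 18.3% of the annotated coding sequence was counted, so their ratios describe a small piece of each gene. The transcripts were short too, with a median of 801 nucleotides and 4 exons, beside 3694 nucleotides and 10 exons for the other candidates. The 57 genes lay on 22 chromosomes, 9 of them on chromosome 2.

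By function the genes fell into 8 groups, with 2 left unplaced. The centrosome and cytoskeleton group held MZT2A, MZT2B, the centrosomal microtubule-binding protein SSNA1 and the dynein light chain DYNLT1. Its replicate 1 median of 2.21 was the highest of the groups. That rank rested on the near-identical MZT2A and MZT2B, while SSNA1 and DYNLT1 stood at 1.73 and 1.72. The ubiquitin, proteasome and cell cycle group held ANAPC11, ANAPC13 and ANAPC15, small subunits of the anaphase-promoting complex, the proteasome assembly chaperone POMP, the COP9 signalosome subunit COPS9 and SIVA1 (median 1.72). Among the 10 RNA processing genes were SNRNP25 of the minor spliceosome, the splicing proteins BUD31, PHF5A and UBL5, the H/ACA proteins NOP10 and NHP2, the ribosome biogenesis factor RBIS, the tRNA phosphotransferase TRPT1, the KEOPS subunit LAGE3 and PTRHD1, named for a peptidyl-tRNA hydrolase domain (median 1.80). The transcription, chromatin and replication group held GTF2A2 of TFIIA, POLR1D, shared by RNA polymerases I and III, POLE4 of DNA polymerase epsilon, BCL7C of the SWI/SNF complexes and ELOC of elongin (median 1.57).

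The chaperone, nascent chain and translation group held PFDN4, the NatC N-acetyltransferase subunit NAA38, RWDD1 and PAIP2B, an inhibitor of the poly(A)-binding protein (median 2.14). The largest group, 13 ER, secretory and endolysosomal genes, held EMC6, the oligosaccharyltransferase subunits OST4 and TMEM258, the translocon subunit SEC61G, the tail-anchored cytochrome CYB5A, the tetraspanin CD63, the membrane protein BRI3, HSP90B1, the secreted peptides and proteins NMB, NENF and C4orf48, CCDC167, and LAMTOR4 of the lysosomal Ragulator (median 1.67). Among 8 signalling and metabolic genes were the phosphatase inhibitor PPP1R14B, the ornithine decarboxylase antizyme OAZ1, the phosphohistidine phosphatase PHPT1, the pterin dehydratase PCBD1, the Ran-binding protein RANGRF, AAMDC, DEF8 and C12orf57 (median 1.81). For 5 genes mitochondrial residence is known or likely although the sheets do not list them: HAX1, the micropeptide MTLN, the respiratory chain assembly factor UQCC5 (formerly SMIM4), CARD19 and C1orf53 (median 1.54). CRYGD, a lens crystallin, and HBQ1, a globin, stayed unplaced.

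The intact mRNAs showed the same enrichment in WT cells. Of the 57 mRNAs, 55 were higher in the OMM pulldown than in the total input and 0 were lower (edgeR quasi-likelihood test, adjusted p under 0.05), where 20.2% of all 13856 genes tested were higher and 45.6% lower. The median log2 enrichment was 1.78, beside −0.28 over all genes. These are other libraries and another readout than the choice used, in the same compartment. MZT2B led, with 42.7 and 46.6 CPM in the total inputs and 319 and 362 CPM in the pulldowns, a 7.63-fold enrichment (log2 2.93 ± 0.10 SE, edgeR adjusted p = 3.16e-06). PHPT1 followed with 36.1 and 36.4 CPM in the inputs and 206 and 233 CPM in the pulldowns (log2 2.60 ± 0.16), and MZT2A with 25.97 and 27.8 CPM against 148 and 164 CPM (2.54 ± 0.09). At the low end, PAIP2B stood at 40.6 and 35.4 CPM in the total inputs and 39.7 and 37.2 CPM in the pulldowns, a log2 value of 0.02 ± 0.09. HSP90B1 stood at 970 and 827 CPM against 903 and 609 CPM, a log2 value of −0.27 ± 0.11 (edgeR adjusted p = 0.0627), and its 2 lysates both lay below 0. ANAPC13 was called at 0.41 ± 0.10, from 64.1 and 65.5 CPM in the inputs and 82.5 and 90.05 CPM in the pulldowns. For PAIP2B the footprints rested on only 71.7 in total and 53 in pulldown in replicate 1, and their replicate 2 ratio of 1.81 was not matched by the mRNA.

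Nearly the whole group was less enriched in the AKAP1 null line. In AKAP1 null cells 54 of the 57 mRNAs had a smaller pulldown effect than in WT and 0 a larger one (edgeR, adjusted p under 0.05, highest 0.0150 among the 54), where 7.96% of the 13856 genes were lower and 6.52% higher. The median difference was −1.56 on the log2 scale, beside 0.19 over all genes. For 56 of 57 genes both AKAP1 null lysates lay below both WT lysates, which was so for 22.3% of all genes. MZT2B fell furthest: its pulldowns held 319 and 362 CPM in WT but 59.8 and 51.2 CPM in AKAP1 null, while the total inputs held 42.7, 46.6, 42.2 and 36.8 CPM. Its enrichment thus went from log2 2.90 and 2.96 to 0.50 and 0.47, a 5.43-fold reduction (log2 −2.44 ± 0.14 SE, edgeR adjusted p = 0.000158).

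SIVA1 showed the same course, with pulldowns of 222 and 260 CPM in WT and 50.1 and 39.2 CPM in AKAP1 null over total inputs of 40.1 and 44.5 CPM in WT and 48.4 and 34.9 CPM in AKAP1 null (log2 −2.40 ± 0.13). COPS9 was 172 and 173 CPM in the WT pulldowns, over inputs of 45.7 and 44.2 CPM, and 38.6 and 34.8 CPM in the AKAP1 null pulldowns, where it lay below its total inputs of 55.03 and 42.6 CPM (difference −2.34 ± 0.14). MTLN had far fewer reads, at 20.5 and 21.4 CPM in the WT pulldowns and 4.93 and 3.24 CPM in the null ones (−2.32 ± 0.19). Its inputs held 4.59 and 4.35 CPM in WT and 5.17 and 3.52 CPM in AKAP1 null. MZT2A completed the 5 largest falls at −2.28 ± 0.12, with pulldowns of 148 and 164 CPM against 35.9 and 26.8 CPM and AKAP1 null inputs of 30.3 and 22.4 CPM. In all 5 the 4 pairings of a null with a WT lysate had the same sign, and the groups did not overlap.

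The 3 genes not called were HSP90B1 (0.50 ± 0.16, edgeR adjusted p = 0.0717), ANAPC13 (−0.40 ± 0.14) and CD63 (−0.54 ± 0.19). Of the 57, HSP90B1 alone had a positive difference, which was 0.33 under TMM scaling. By function, all 10 RNA processing genes, all 8 signalling and metabolic genes, all 5 genes at mitochondria and all 5 transcription genes were lower, and 11 of 13 ER, secretory and endolysosomal genes. By length, the median difference was −1.78 for the 13 proteins below 100 amino acids, −1.54 for 36 proteins from 100 to under 200 and −1.05 for the 8 longer ones.

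**Figure D2:**
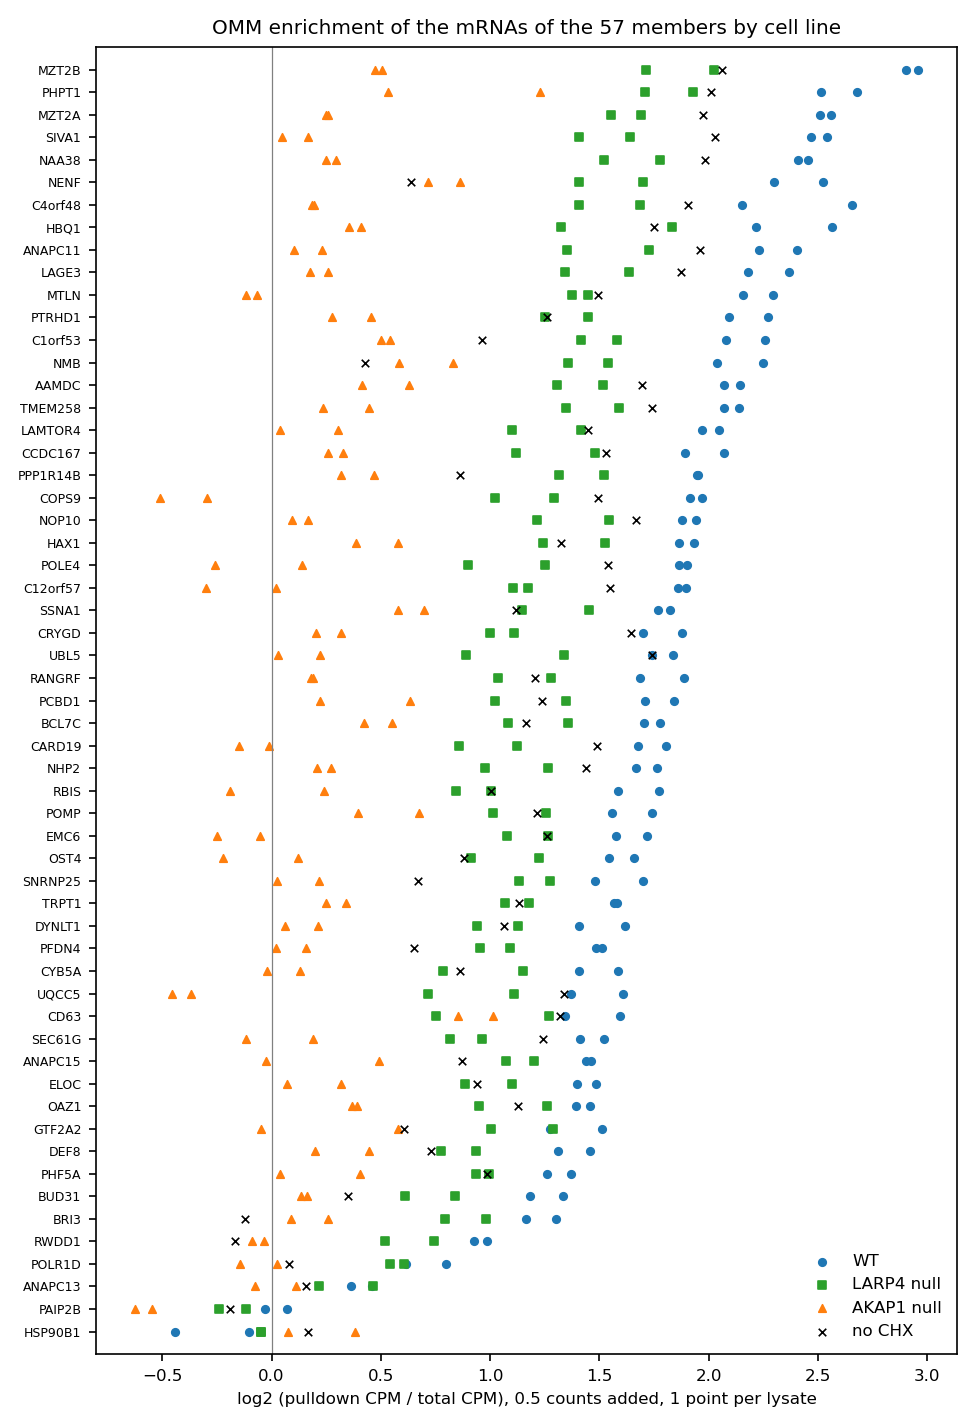
Each row is 1 of the 57 genes, ordered by WT enrichment; each point is 1 lysate, with log2 of pulldown over total CPM on the x axis (0.5 counts added), for WT (blue circles), LARP4 null (green squares), AKAP1 null (orange triangles) and the lysate without CHX (crosses). AKAP1 null points lie near 0 for most genes, with a median of 0.25 and 0.19 in the 2 lysates, WT points around 1.74 and 1.77, and LARP4 null points between them; at the bottom PAIP2B and HSP90B1 show no enrichment in WT.

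What was left in AKAP1 null cells was small. The median enrichment there was 0.22, with 19 genes higher in the pulldown (background 13.9%) and 3 lower (background 28.1%) at edgeR adjusted p under 0.05. The highest were CD63 (0.93 ± 0.13), PHPT1 (0.88 ± 0.15) and NENF (0.79 ± 0.11), and the 3 lower ones were PAIP2B (−0.58), UQCC5 (−0.41) and COPS9 (−0.40). These 2 counts were fragile: without the lysate terms 6 were higher and 1 lower, and with either AKAP1 null replicate left out 4 or 3 were higher. The total inputs did not show such a change. Of the 57, 0 differed between AKAP1 null and WT total inputs (background 0.0% lower), with a median difference of 0.02 and 1 gene at an unadjusted p under 0.05. DESeq2 also called 0 of them. In edgeR the same contrast missed AKAP1 itself, so these counts alone do not show that the mRNA levels were unchanged.

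Other classes of genes moved in different ways in the same contrast. The 31 mitochondrial genes with proteins under 200 amino acids and a replicate 1 ratio above 1.5 were all lower in AKAP1 null cells, with a median of −1.83. Of 50 mitochondrial genes with proteins over 400 amino acids and the same ratio, 48 were higher and 1 lower, with a median of 1.28. Among the 158 other non-mitochondrial genes with a replicate 1 ratio between 1 and 1.5, 103 were lower (median −0.79), and among 522 non-mitochondrial genes with proteins under 200 amino acids and a ratio of 1 or less, 134 were lower (median −0.22). The differences between these classes were not tested.

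**Figure D3:**
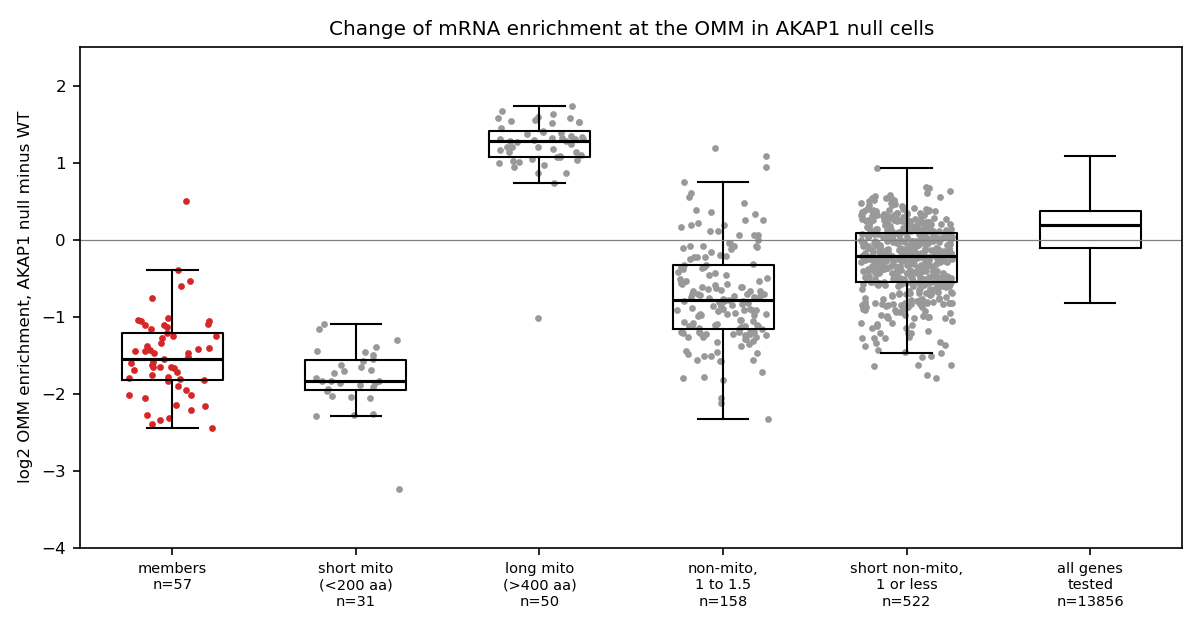
Log2 OMM enrichment in AKAP1 null minus WT for the 57 genes (red) and for 5 other sets of genes (grey), 1 point per gene, with boxes for the quartiles and the median and whiskers to 1.5 times the interquartile range. The medians are −1.56 for the 57 genes, −1.83 for short and 1.28 for long mitochondrial genes, −0.79 and −0.22 for the non-mitochondrial sets and 0.19 for all genes tested, whose points are not drawn.

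In LARP4 null cells the group remained enriched at the OMM, with smaller values than in WT in every lysate median. Of the 57, 55 were higher in the pulldown than in the input (background 22.8%) and 0 lower (background 30.0%), with a median of 1.15. The median was 1.27 and 1.03 in the LARP4 null lysates, beside 1.74 and 1.77 in WT. For the short mitochondrial genes it was 1.48 and 1.16 in LARP4 null, beside 2.04 and 2.19 in WT. For the short non-mitochondrial genes with a replicate 1 ratio of 1 or less it was 0.50 and 0.28, beside 0.40 and 0.45. Differences between these classes were not tested. In the direct test against WT edgeR called 0 of the 57 lower and 0 of all 13856 genes in either direction (background 0.0%), although the median difference of the 57 was −0.58 and 51 of them had an unadjusted p under 0.05 with a lower value, as did 666 of all genes. DESeq2 called 42 of the 57 lower. Both LARP4 null lysates lay below both WT lysates for 54 genes, which was so for 12.4% of all genes. The call depended on single libraries: edgeR called 50 lower without LARP4 null replicate 1 and 13 without LARP4 null replicate 2.

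MZT2B illustrates the size. Its pulldowns held 175 and 121 CPM in LARP4 null and 319 and 362 CPM in WT, over total inputs of 43.0 and 37.0 CPM and 42.7 and 46.6 CPM, a log2 difference of −1.06 ± 0.14 (edgeR adjusted p = 0.160). SIVA1 stood at 108 and 98.4 CPM in the LARP4 null pulldowns against 222 and 260 CPM in WT (−0.98 ± 0.13, same adjusted p). In the total inputs 0 of the 57 differed between LARP4 null and WT. Of all genes 1 was higher and 1 lower (0.00722% each, IRAK1BP1 and LARP4 itself). At an unadjusted p under 0.05, 4 of the 57 were lower, which is not read as a fall of the group.

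Set directly against each other, 46 of the 57 mRNAs were less enriched in AKAP1 null than in LARP4 null cells and 0 more (edgeR, adjusted p under 0.05, background 2.94% lower and 1.72% higher), with a median difference of −0.91. COPS9 (−1.56 ± 0.14), MTLN (−1.502 ± 0.18) and SIVA1 (−1.42 ± 0.13) differed most between the 2 lines, while CD63 had nearly the same value in both (−0.08 ± 0.19). This count rested on the AKAP1 null libraries and the lysate terms: 23 were called without AKAP1 null replicate 1, 0 without AKAP1 null replicate 2, and 5 without the lysate terms. The AKAP1 and LARP4 contrasts with WT share the WT libraries.

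Without CHX the enrichment was lower for most of the group. In the single lysate the median was 1.24, and 55 of 57 genes lay below both WT lysates with CHX, where 3750 of all 13856 genes did and 8247 lay above both. The median difference was −0.50 on the log2 scale, beside 0.16 over all genes tested. There is no replicate of this condition, its light pulse was shorter, and its label names no genotype or guide RNA, unlike the WT samples, so the values are side by side with no test. The median difference was −0.24 for the short mitochondrial genes and 0.06 for the long ones. It was −0.19 for the short non-mitochondrial genes with a replicate 1 ratio of 1 or less. NENF (neudesin, a secreted neurotrophic protein) went from 2.52 and 2.30 with CHX to 0.64 without it, and NMB (neuromedin B) from 2.25 and 2.04 to 0.43. These were the largest reductions, followed by BRI3 (−1.35), C1orf53 (−1.21) and RWDD1 (−1.13). C4orf48, the third secreted product, changed by −0.50 only. UBL5 had nearly the same value, at 1.74 without CHX and 1.74 and 1.84 with it, and HSP90B1 was the only gene above both WT lysates (0.17 against −0.10 and −0.44).

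At the ER the 3 secreted products NMB, NENF and C4orf48 had the highest footprint enrichment of the group, while the membrane proteins were divided. Relative to library totals 6 of 56 genes tested were higher in the ER pulldown than in the input, where 19.8% of all 7381 genes were, and 30 were lower, where 72.1% of all genes were (edgeR, adjusted p under 0.05). The median was −0.27, beside −0.68 over all genes, so that most of the group lay above the typical gene. Other short genes did so too. In the 2 ER lysates the medians were −0.31 and −0.23 for the group and −0.71 and −0.64 over all genes. They were −0.20 and −0.20 for the short mitochondrial genes. The short non-mitochondrial genes with an OMM ratio of 1 or less had −0.47 and −0.40. TMM scaling, which moves the median of all genes to −0.02, turned the balance to 39 higher and 0 lower, and DESeq2 gave 31 higher and 0 lower. Under library totals the count of lower genes also fell to 9 and 16 without ER replicate 1 or 2.

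The 6 higher genes were NMB, NENF, C4orf48, CD63, EMC6 and TMEM258, and each was also higher under TMM. HSP90B1 was not tested, because its 63.98 footprints in the second ER total input fell short of 64. Its log2 ratios in the 2 ER lysates were 1.04 and 1.27. NMB held 35.5 and 23.1 CPM of footprints in the ER total inputs and 145 and 99.3 CPM in the pulldowns (log2 2.06 ± 0.12, edgeR adjusted p = 6.12e-11). NENF held 202 and 161 CPM against 901 and 603 CPM (2.03 ± 0.11), and C4orf48 57.3 and 42.0 CPM against 206 and 152 CPM (1.85 ± 0.10). CD63 went from 89.0 and 84.6 CPM to 215 and 200 CPM (1.26 ± 0.16) and EMC6 from 22.9 and 21.4 CPM to 37.8 and 46.3 CPM (0.90 ± 0.15). All 5 were higher in both pulldowns than in both inputs. The last of the 6 was TMEM258 at 0.68 ± 0.13, which was not called without the lysate terms. These 6 were thus recovered both at the ER and, by choice, at the OMM. The shortest ER protein, OST4, was not among them, with 280 and 194 CPM in the ER inputs and 161 and 124 CPM in the pulldowns. It was called lower under library totals (−0.72 ± 0.10), a value close to the median of all genes tested. Of the other membrane proteins, CYB5A (−0.49), BRI3 (−0.30) and CCDC167 (−0.29) were also called lower on that scale but lay above that median. SEC61G stood at −0.03. TMM scaling and DESeq2 called no gene of the group lower.

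**Figure D4:**
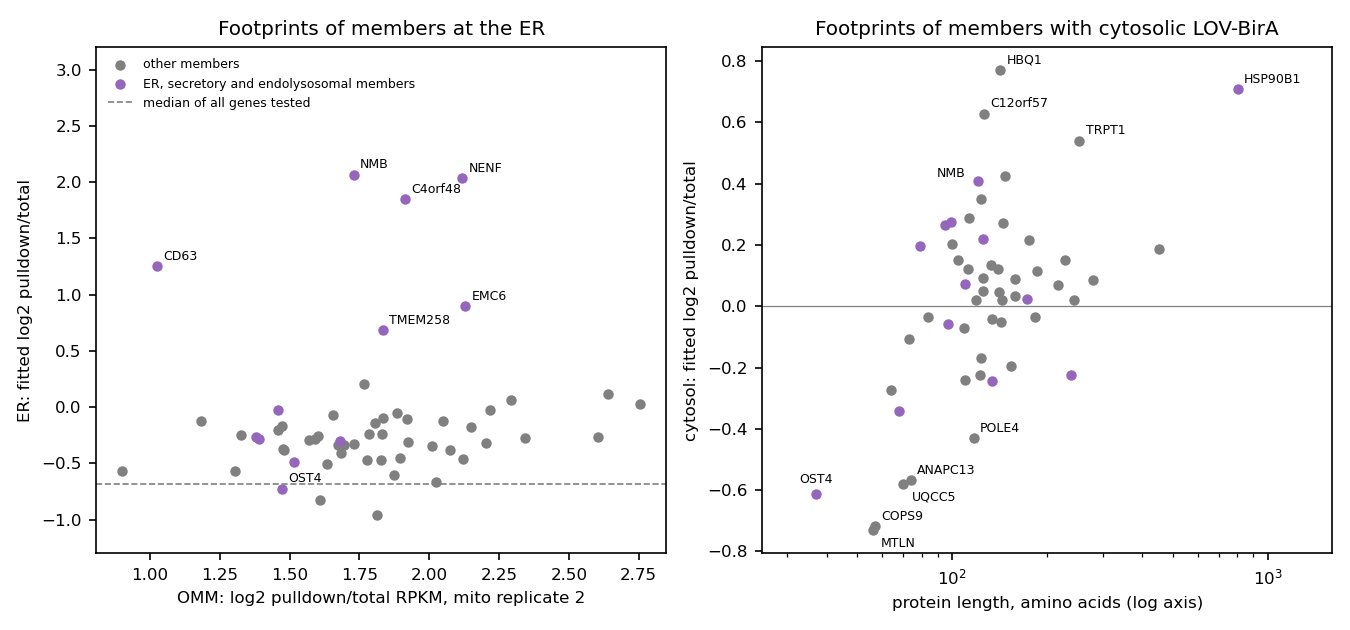
Left, fitted log2 pulldown over total at the ER (y axis, library totals as scale) against the OMM replicate 2 ratio (x axis) for 56 genes, with the ER, secretory and endolysosomal genes in purple and the median of all genes tested (−0.68) dashed. Right, fitted log2 pulldown over total with cytosolic LOV-BirA for 55 genes against protein length on a log axis. NMB, NENF and C4orf48 stand near 2 on the left, and OST4, MTLN, COPS9, UQCC5 and ANAPC13, all under 75 amino acids, stand low on the right.

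With the ligase free in the cytosol the group was close to neutral. Of 55 genes tested 5 were higher (background 2.02% of 7162 genes) and 6 lower (background 5.96%), with a median of 0.05 beside 0.02 over all genes (edgeR, adjusted p under 0.05). The 6 lower genes were MTLN (−0.73 ± 0.13), COPS9 (−0.72 ± 0.11), OST4 (−0.61 ± 0.10), UQCC5 (−0.58 ± 0.13), ANAPC13 (−0.57 ± 0.15) and POLE4 (−0.43 ± 0.13). The first 5 encode 56, 57, 37, 70 and 74 amino acids. OST4 held 285 and 281 CPM in the cytosol inputs against 204 and 168 CPM in the pulldowns, and COPS9 165 and 107 CPM against 113 and 56.9 CPM, lower in both lysates. Of the 13 proteins under 100 amino acids 5 were lower and 0 higher (median −0.27), while the 34 tested from 100 to under 200 had a median of 0.08. The 5 higher genes were HBQ1 (0.77), HSP90B1 (0.71), C12orf57 (0.63), TRPT1 (0.54) and NMB (0.41). Without the lysate terms 0 genes of the group were called in the cytosol, and DESeq2 called 3 higher and 4 lower.

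Many members are the small subunits of larger complexes, so their partners offer a comparison within 1 complex. At the OMM the fit of the partners included replicate 1, the values that chose the 57 genes. Partners with enough footprints were outside the group because they lay below the threshold there. Their distance from the chosen genes in this fit was thus partly set in advance, and it was not tested. For 16 complexes that hold 21 of the 57 genes, 74 partners outside the group had enough footprints at the OMM. Of these, 25 were higher (background 17.0% of 6728 genes) and 27 lower (background 46.1%), with a median of 0.01 beside −0.38 over all genes (edgeR, adjusted p under 0.05, library totals). The split followed length. Of 22 partners under 200 amino acids 18 were higher and 0 lower (median 0.74), and of 52 longer partners 7 were higher and 27 lower (median −0.38). The same partners in WT RNA-seq gave 19 of 22 short ones higher and 1 lower. Of the 52 long ones 15 were higher and 26 lower (background 20.2% higher and 45.6% lower). In AKAP1 null against WT, 9 of the 22 short partners and 2 of the 52 long ones were lower (background 7.96%). There 0 and 5 were higher (background 6.52%). TMM gave 38 partners higher and 8 lower at the OMM, and leaving out mito replicate 1 or 2 gave 16 or 14 lower.

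In the γ-tubulin ring complex 0 of 8 partners were higher and 5 lower. The core subunits ranged from TUBG1, γ-tubulin itself, at 0.20 to TUBGCP6 at −0.88, and even MZT1, a protein of 82 amino acids, stood at 0.06. In the anaphase-promoting complex the other small subunit ANAPC16 reached 1.31 while CDC16 stood at −1.03. Within prefoldin, a complex of small subunits, PFDN2 reached 1.37 and PFDN1 stood at 0.08. In SF3b the partners SF3B6 (1.09) and SF3B5 were higher and SF3B3 (−0.98) lowest. The H/ACA partners of NOP10 and NHP2 were both lower, GAR1 at −0.39 and DKC1, the pseudouridine synthase, at −0.71. In NatC the partner NAA35 was lower (−0.91), and NAA30 stood at −0.32 (edgeR adjusted p = 0.155). In the COP9 signalosome 0 of 7 partners were higher, from COPS8 (0.37) to COPS2 (−1.01).

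The EMC partners of EMC6 ran from EMC7 (0.78) to EMC2 (−0.19), with 6 of 9 higher. For oligosaccharyltransferase DAD1 stood highest (1.04) and the catalytic STT3B lowest (−0.61). SEC61B, the other small translocon subunit, reached 1.46 and SEC61A1 −0.41. All 4 Ragulator partners of LAMTOR4 were higher, from LAMTOR3 (0.44) to LAMTOR2 (1.22). Elongin gave ELOB at 1.09 and ELOA at −0.53, KEOPS ran from TPRKB (0.87) to OSGEP (0.25), and the minor spliceosome from ZCRB1 (1.49) to PDCD7 (−0.48). The DNA polymerase epsilon partners of POLE4 lay between POLE3 (0.12) and POLE (−0.53), and the TFIIA partner had too few footprints.

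**Figure D5:**
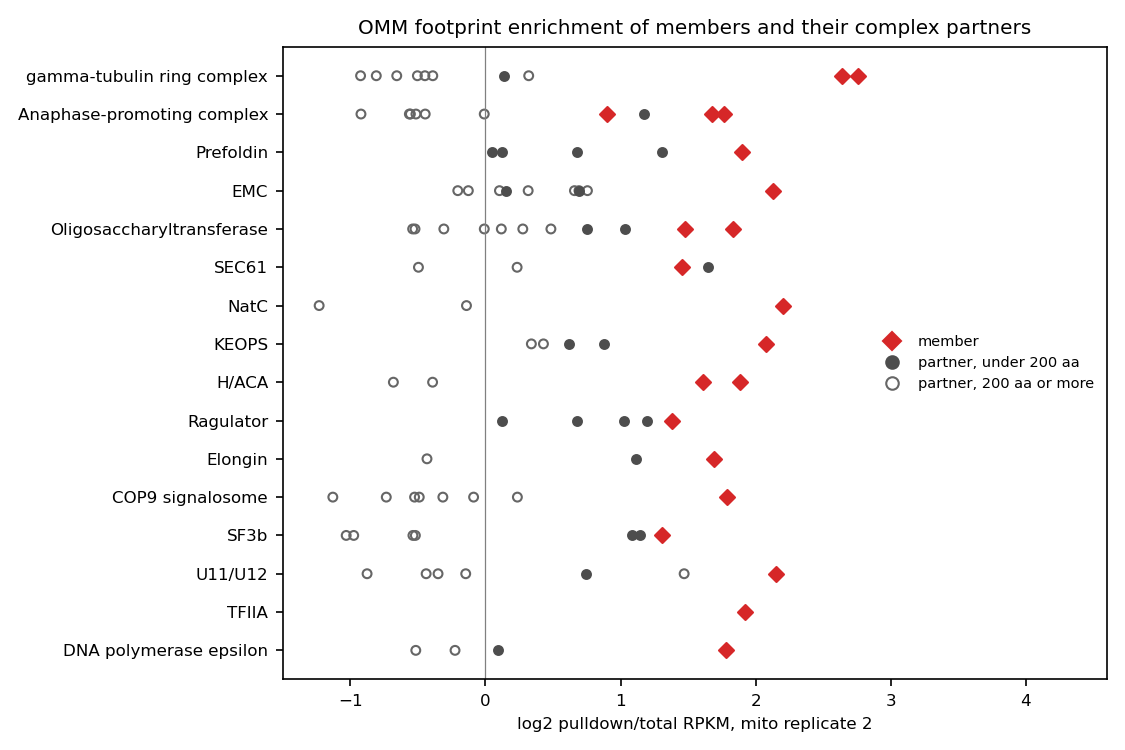
Log2 ratio of pulldown to total RPKM at the OMM in replicate 2 (x axis) for the subunits of 16 complexes (rows), with the 21 chosen genes as red diamonds, partners under 200 amino acids as filled and longer partners as open circles. Longer partners sit mostly below 0 and short ones above it. ANAPC13 and SEC61G lie below a short partner, ANAPC16 and SEC61B, in this replicate. In replicate 1 the choice itself set the chosen genes above the partners.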

How the data were processed

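Ribosome profiling with LOV-BirA at the ER, OMM or cytosol (12 libraries) and RNA-seq of ribosome-bound mRNA with LOV-BirA at the OMM (14 libraries) of HEK293T cells were analysed. The authors deposited, per coding sequence, estimated counts of footprints (fractional, rounded here for the count model) and RPKM, and per gene whole read counts with a column named FPKM that is about 10 times larger than FPKM from the counts, a score used here only as ratios. The processing notes name Bowtie and GRCh38. Per the study's methods, footprints were filtered with Bowtie, mapped with TopHat and counted with plastid on uniquely alignable positions, and RNA-seq reads were aligned with STAR and counted with featureCounts. Broken RNA-seq lines (3 to 7 per file) were left out.

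The genes and all lists were chosen with earlier results of these data known. Each pulldown was compared with the total input of its own lysate in edgeR 4.0.16 (quasi-likelihood, two-sided, a term per lysate, library totals as scale, Benjamini-Hochberg over all genes tested; R 4.3.3), over 12 RNA-seq libraries with CHX or 12 footprint libraries, with an SE from the F statistic. Total inputs were compared with TMM scaling. RNA-seq genes needed a mean of 64 counts and footprint genes 64 counts in both total inputs. The pairing comes from the shared lysate: deviations of the total input and pulldown of 1 number correlated at 0.54 to 0.89. Per-lysate values are log2 CPM ratios with 0.5 counts added. Lengths, exons and coordinates come from GENCODE 44 on GRCh38. Groups are those of the sample labels. DESeq2 1.42.0, TMM, other filters, no lysate term and left-out replicates were the alternatives. The count fits were tested on simulated data. Every member is named in its functional group; by rule, per-sample values are given for the 5 highest at the OMM, the 5 largest called changes of each null line against WT with 1 sign in all 4 pairings (only AKAP1 null had calls), the 3 highest and lowest in WT, the 5 highest called at the ER and the 3 genes on either side of the threshold. MZT2B and SIVA1 in LARP4 null and the genes named in AKAP1 null alone, AKAP1 against LARP4 null, without CHX and in the cytosol were chosen after their values were seen. Intervals and errors of counts cover counting error only, and reads may not be independent molecules. Molecular identifiers were extracted from footprint reads, but the methods do not say that duplicates were removed.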

Additional observations from a re-analysis of the deposited data

Results flagged for a closer look

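The effects of the 2 null lines on the group differed: in the test of the difference itself 46 of the 57 mRNAs were less enriched at the OMM in AKAP1 null than in LARP4 null cells (edgeR, adjusted p under 0.05), with a median of −0.91 on the log2 scale. The count was 0 without AKAP1 null replicate 2 and 23 without AKAP1 null replicate 1. Each line is 1 clone, so clone and genotype cannot be told apart.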

How the results depend on the processing

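The fall of the group in AKAP1 null against WT kept its direction under every alternative run, with 43 genes lower without the replicate block of lysates and 54 with a replicate block of the pulldown effect, and 49 to 52 with a replicate left out. The total inputs gave 0 members lower under every alternative, the replicate block included. In AKAP1 null the main fit called 0 of all 13856 genes lower there and missed AKAP1 itself, so this count says little about mRNA levels. For LARP4 null against WT DESeq2 gave 42 lower instead of 0, and leaving out a replicate 0 to 50; the cause was not tested. Same-numbered lysates of different genotypes correlated at −0.07 to 0.01 in their pulldown effect, and their total inputs at 0.21 (WT and AKAP1 null) and 0.34 (WT and LARP4 null). With 2 numbers and no label that ties them, they were treated as sharing only a number. The replicate block of the pulldown effect left 0 lower there and 41 in AKAP1 null against LARP4 null, where no replicate block of lysates gave 5 and leaving out a replicate 0 to 55. Members higher within AKAP1 null became 30 by DESeq2, 6 with no replicate block and 3 to 4 with a replicate left out, and lower ones 1 by TMM, DESeq2 and no replicate block and 0 to 1 with a replicate left out. At the ER, higher and lower members became 39 and 0 by TMM, 31 and 0 by DESeq2, and 2 were lower with no replicate block and 9 to 16 with a replicate left out. In the cytosol DESeq2 gave 3 higher, and no replicate block gave 0 higher and 0 lower. Complex partners higher and lower at the OMM became 38 and 8 by TMM, 38 and 6 by DESeq2, 12 and 6 with no replicate block, and 14 to 16 were lower with a replicate left out.

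The rule itself gave 215 genes above log2 1, 11 above 2 and 116 with TMM-scaled counts. Mito replicate 2 in its place gave 59 genes, 41 of them among the 57. Chosen after seeing the data, the share lower in AKAP1 null was computed for each list: 73.0% above log2 1, 89.8% by replicate 2, 100% of the 43 genes above 1.5 in both replicates, and 94.7% of the 57. At 2 replicates and 71.7 footprints for the shallowest gene, the order of neighbouring genes was not resolved.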
